A study of Mus musculus with 24 samples.

Results

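The 10 genes described here belong to canonical Wnt signaling. Lef1, Tcf7, Tcf7l1 and Tcf7l2 encode the TCF/LEF transcription factors, and Axin2, Nkd1, Nkd2 and Notum encode feedback regulators. Axin1 encodes a scaffold related to Axin2, and Ctnnb1 encodes β-catenin. They were taken by name, and all 10 were found among the 22367 protein-coding genes of the mouse annotation on chromosomes 1 to 19, X and Y. For each of them, H3K4me3 and H3K27me3 were read within 2 kb of the annotated transcription start site (TSS), over the gene, and over the 20 kb on each side of it.

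The cells came from C57BL/6 x CD1 mouse embryos and were sorted by fluorescence from pooled gonads. XY and XX gonadal progenitor cells were collected at E10.5 from SF1-eGFP embryos, Sertoli cells at E13.5 from XY Sox9-CFP embryos, and pregranulosa cells at E13.5 from XX embryos carrying TESM-CFP, a reporter built on a mutated version of the TESCO enhancer of Sox9. Each reporter reads 1 promoter or enhancer, so a population is the cells in which that reporter was active. ChIP-seq of histone H3 and of both marks was done on 2 replicates of each of the 4 populations, which gives 24 samples, and fly chromatin was added to each as carrier. The question that these genes bear on is whether components of the Wnt pathway, which promotes the ovarian fate, carry the repressive mark before and after sex determination.

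In canonical Wnt signaling, β-catenin escapes degradation, enters the nucleus and binds TCF/LEF factors on DNA, where it replaces corepressors and activates target genes. Several of those targets, Axin2, Nkd1 and Notum among them, encode inhibitors of the pathway and form a negative feedback loop. H3K4me3 marks promoters that are active or poised, H3K27me3 is laid down by Polycomb repressive complex 2, and a promoter with both marks is called bivalent. In the gonad, WNT4, RSPO1 and β-catenin drive ovarian differentiation and oppose the testis pathway.

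The data are 8 lists of peaks, 1 for each mark in each population, in which both replicates were pooled. A list holds the positions of enrichment relative to H3 and carries no level, so every value below is a position or a covered length, no spread between replicates can be given, and no test compares populations. Depth differed: the H3K4me3 lists were called from 10162534 tags in XY progenitors, 49254553 in XX progenitors and 31104760 in Sertoli cells, and the H3K27me3 lists from 6470151, 33185400 and 44446456 tags. Both pregranulosa lists lack this information and hold no overlapping peaks, unlike the other 6. H3K27me3 regions covered 90.9 Mb in XY progenitors, 143.8 Mb in XX progenitors, 157.9 Mb in Sertoli and 172.9 Mb in pregranulosa cells, and the part of these differences in the covered length of a gene was not tested. The labels were checked against marker genes. All 4 Y-linked genes had H3K4me3 at the promoter in both XY lists and in neither XX list. H3K27me3 was at 0 of 5 Sertoli markers in the Sertoli list, at 5 in the pregranulosa list and at 4 in each progenitor list. Of 6 pregranulosa markers, it was at 3 in the pregranulosa list (Foxl2, Fst and Irx3) and at 6 in each of the others. Of 5 markers of gonadal progenitors, among them Nr5a1, the gene of SF1, all 5 had both marks in the XY and XX progenitor lists, against H3K27me3 at 2 in Sertoli and 0 in pregranulosa cells. Of 3 germ cell markers, Dazl had H3K4me3 in all 4 lists, Pou5f1 in Sertoli cells and Ddx4 in none, and of 3 endothelial and 2 blood markers only Cdh5 had it, in pregranulosa cells.

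Before sex determination, the XY and XX lists gave the same calls at all 10 promoters, where 2.33% of autosomal genes had H3K27me3 in the XY and not the XX list and 1.55% the reverse. Of the 10 genes, 9 had H3K4me3 within 2 kb of the TSS in each of the 4 populations, where the share over all 21418 autosomal protein-coding genes was 64.8% in XY progenitors, 66.7% in XX progenitors, 65.5% in the Sertoli list and 67% in the pregranulosa list. These 9 had it in all 4 lists, as did 62.5% of genes. The remaining gene was Ctnnb1, whose H3K4me3 lay at a start further inside the gene, as described below. H3K27me3 was present at 6 promoters in XY progenitors and at the same 6 in XX progenitors (Lef1, Tcf7, Axin2, Nkd1, Nkd2 and Notum), against 23.6% and 22.8% of all autosomal genes. All 6 were bivalent, a state found at 20.9% and 21.4% of autosomal genes, and 19.2% of genes were bivalent in both progenitor lists. The XX count rests in part on narrow regions: when the widest 75% of the regions were kept, 3 promoters (Lef1, Tcf7 and Notum) had H3K27me3 in XX progenitors, and Axin2 and Nkd2 then differed between the XY and XX lists.

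After sex determination the calls differed between the sexes at 4 of the 10 genes. In Sertoli cells 6 promoters had H3K27me3, against 24.2% of all genes: Lef1, Tcf7, Axin2, Nkd1, Notum and Tcf7l1. In pregranulosa cells 4 had it, against 22.1%: Lef1, Nkd1, Nkd2 and Notum. Against XY progenitors, the Sertoli list lacked Nkd2 (5.29% of genes had H3K27me3 in XY progenitors alone of this pair) and held Tcf7l1 (5.87% the reverse). Against XX progenitors, the pregranulosa list lacked Tcf7 and Axin2 (4.22%) and held no further member (3.42%), whereas with the widest 75% of the regions the members that differed in this pair were Tcf7 and Nkd2, the latter with H3K27me3 in pregranulosa cells. Each of these promoters also had H3K4me3, so they were bivalent, as were 19.2% of genes in Sertoli cells and 19.6% in pregranulosa cells. Tcf7, Tcf7l1 and Axin2 had H3K27me3 in the Sertoli and not the pregranulosa list, a difference seen at 5.11% of all genes, and Nkd2 had the reverse, seen at 2.96%. By these calls, Tcf7 and Axin2 followed the same course across all 4 lists, as did 1.09% of genes. Both had H3K27me3 in the progenitor lists and in Sertoli but not pregranulosa cells. At Axin2 the progenitor regions covered 1010 bp (XY) and 1361 bp (XX) of the window and not the TSS. Nkd2 had the mark in both progenitor lists and in pregranulosa but not Sertoli cells, as did 1.63%, and Tcf7l1 had it in Sertoli cells alone, as did 3.28%. Lef1, Nkd1 and Notum were bivalent in all 4 lists, against 14% of genes. For Nkd1 this rests on narrow regions: H3K27me3 at its promoter was lost in XY progenitors and pregranulosa cells both when the widest 75% of the regions were kept and when the lists were cut to equal numbers of regions, and in XX progenitors under the first setting. Nkd1 then differed between Sertoli and pregranulosa cells as well, which makes 5 genes, and between XY progenitors and Sertoli cells, which makes 3. With equal numbers of regions, Nkd1 also differed between XX progenitors and pregranulosa cells, which makes 3 with Tcf7 and Axin2. Tcf7l2, Axin1 and Ctnnb1 had no H3K27me3 within 2 kb of the TSS in any list, as was the case for 68.8% of genes.

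Over the gene itself, all 10 genes had H3K4me3 in each list, against 69.4% of autosomal genes in XY progenitors, 70.9% in XX progenitors, 70% in the Sertoli list and 71.5% in the pregranulosa list. H3K27me3 was inside 7 genes in XY progenitors, 7 in XX progenitors, 7 in Sertoli cells and 5 in pregranulosa cells, against 26.1%, 25.3%, 27.1% and 25%. The genes were those with a marked promoter, and Tcf7l2 in each list. The gene begins at the TSS, so these calls overlap with those of the promoter. Without the first 2 kb of the gene, the counts were 5, 7, 6 and 4. In the 20 kb flanks, H3K4me3 was found at 10, 10, 9 and 10 genes, against 78.9%, 79.7%, 79% and 80.6%, with Ctnnb1 the one without it in Sertoli cells. H3K27me3 was in the flanks of 7, 7, 8 and 7 genes, against 41.1%, 38.4%, 43.6% and 38.8%. With flanks of 10 kb, these counts of members were 7, 7, 6 and 5.

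**Figure D1:**
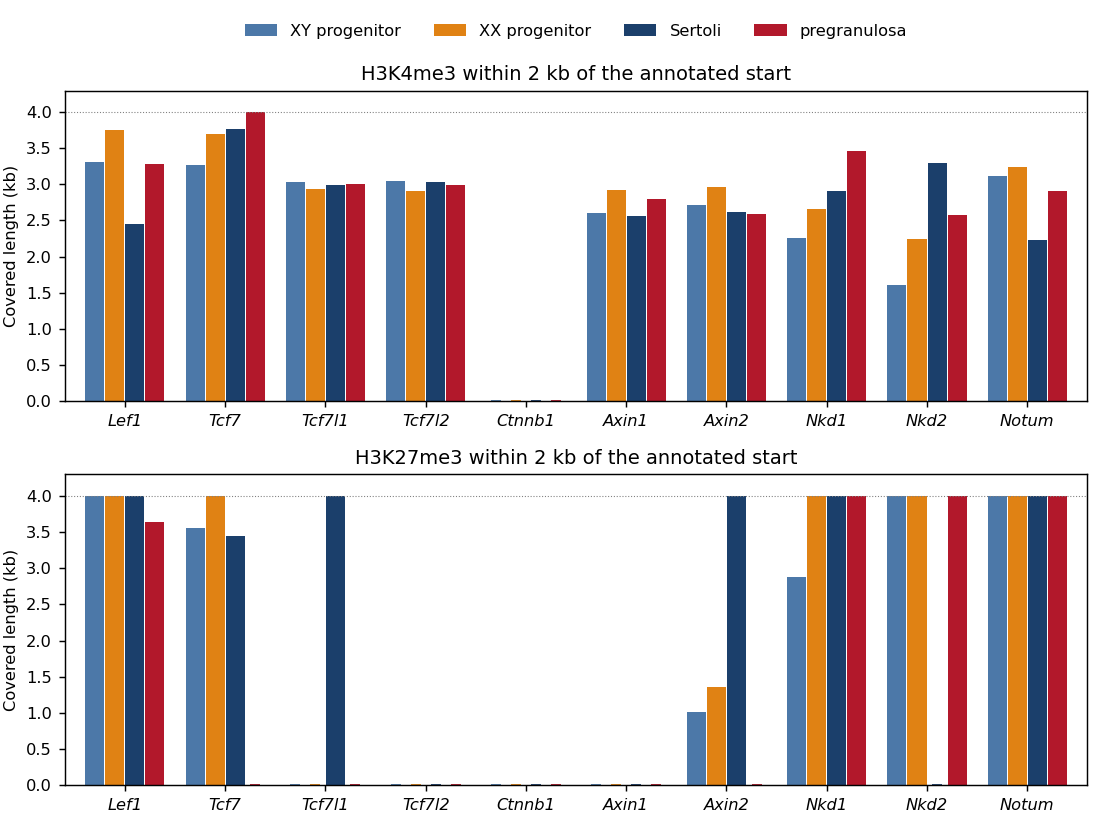
Length of the 4.0 kb window around the annotated TSS covered by H3K4me3 (top) and by H3K27me3 (bottom), in kb, for the 10 genes in the 4 populations. Each bar is 1 pooled list, so there are no error bars, a mark at 0 stands for no cover, and the dotted line is the full window. H3K27me3 fills the window at Tcf7l1 in Sertoli cells alone, and is missing at Tcf7 and Axin2 in pregranulosa cells and at Nkd2 in Sertoli cells.

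Lef1 encodes a TCF/LEF factor that turns to an activator when β-catenin binds it. The gene (ENSMUSG00000027985.8) lies at chr3:130813389-130927274 on the plus strand of mm9, and its mapped RefSeq starts include positions 174 and 148 bases before the annotated one. The 250 bases before the first of these starts are printed with each CG dinucleotide, 11 in all, in capitals, as read from the mm9 genome (NCBIM37) like the other sequences, because this stretch lay under H3K27me3 in all 4 lists.
Lef1 chr3:130812965-130813214 plus strand: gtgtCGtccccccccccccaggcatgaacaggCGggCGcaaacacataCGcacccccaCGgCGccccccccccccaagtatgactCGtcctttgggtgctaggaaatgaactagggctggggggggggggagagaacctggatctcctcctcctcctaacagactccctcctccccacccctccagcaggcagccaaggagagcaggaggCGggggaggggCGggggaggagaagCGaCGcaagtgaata
H3K27me3 over the Lef1 TSS formed 1 region of 14.4 kb in XY progenitors, from 9.42 kb before to 4.93 kb after it, and 1 region of 14.9 kb in XX progenitors, from 9.99 kb before to 4.96 kb after. In Sertoli cells the region was 23.6 kb wide and reached from 11.7 kb before the TSS to 11.9 kb after it. The pregranulosa region was the narrowest, at 7.5 kb, from 5.89 kb before to 1.63 kb after the TSS. Of the autosomal genes with H3K27me3 over the TSS, 22.3% had a region at least as wide as that of Lef1 in XY progenitors, 21.7% in XX progenitors, 20.8% in Sertoli and 82.5% in pregranulosa cells. The median width over those genes was 8.45 kb in XY progenitors and 11.9 kb in Sertoli cells, so the rank of the Lef1 region was about the same in these lists.

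The Sertoli list also held H3K27me3 further into Lef1 than any other list. Regions of 5.00 kb, 5.00 kb and 7.60 kb began 21.1 kb, 32.3 kb and 42.7 kb after the TSS, and another of 16.2 kb lay upstream between -30.3 and -14.1 kb. Of these, the upstream region alone had a counterpart in pregranulosa cells, between -28.7 and -18.8 kb. The regions of 5.00 kb have the smallest width that the peak size allows. Inside the gene, H3K27me3 covered 4935 bp in XY progenitors, 4958 bp in XX progenitors, 29494 bp in Sertoli cells and 1635 bp in pregranulosa cells. A second group of starts, 1 of them coding, lies 2.3 kb into Lef1 (RefSeq start at 2320 bp). It was under H3K27me3 in both progenitor lists and in Sertoli cells, and outside it in pregranulosa cells, where H3K4me3 covered it as in the other 3 lists.

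H3K4me3 over the Lef1 TSS was 4.4 kb wide in XY progenitors, 5.5 kb in XX progenitors, 3.6 kb in Sertoli cells and 5.5 kb in pregranulosa cells, and began 1.31, 1.73, 0.46 and 1.28 kb upstream. A separate H3K4me3 region lay upstream of the promoter in every list, from -4.78 to -2.22 kb in XY progenitors, -5.04 to -1.99 kb in XX progenitors, -4.82 to -2.74 kb in Sertoli cells and -5.10 to -2.04 kb in pregranulosa cells. The annotation places no gene start there. Over the gene and its flanks, H3K4me3 covered 11.0, 16.9, 6.89 and 18.9 kb in the same order. The Sertoli list thus had the shortest H3K4me3 cover and the longest H3K27me3 cover at Lef1.

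ChIP-qPCR primers for Lef1 were among those of the study and are shown to place that assay on the regions. They matched mm9 exactly at chr3:130811997-130812194, a product of 198 bp between positions -1392 and -1195 from the TSS.
Lef1 forward primer: gctcccaggttctacagatggc
Lef1 reverse primer: aaaattctccggttcccactgtc
The whole product lay within H3K27me3 in all 4 populations. H3K4me3 covered all of it in XX progenitors, a part in XY progenitors and pregranulosa cells, and none in Sertoli cells.

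Tcf7 encodes TCF1, the family member best known from T cell development and itself a Wnt target in several tissues. The gene (ENSMUSG00000000782.8) lies at chr11:52065873-52096681 on the minus strand, with 4 coding starts within 935 bp. The 250 bases before it, in which 43 CG dinucleotides are in capitals, are printed because H3K27me3 covered them in 3 lists and not in pregranulosa cells.
Tcf7 chr11:52096682-52096931 minus strand: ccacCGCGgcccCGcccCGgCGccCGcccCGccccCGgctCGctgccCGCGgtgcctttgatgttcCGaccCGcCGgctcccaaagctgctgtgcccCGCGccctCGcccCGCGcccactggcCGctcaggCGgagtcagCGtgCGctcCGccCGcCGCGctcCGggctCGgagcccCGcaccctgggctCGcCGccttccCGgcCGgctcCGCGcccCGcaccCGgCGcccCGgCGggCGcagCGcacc
H3K27me3 ran from 6.01 kb before the Tcf7 TSS to 1.56 kb after it in XY progenitors, from 4.96 kb before to 2.71 kb after in XX progenitors, and from 6.55 kb before to 1.44 kb after in Sertoli cells. The 3 regions were of like width, at 7.6, 7.7 and 8.0 kb. In pregranulosa cells there was no H3K27me3 in the promoter, the gene or its flanks, and the nearest region was 40.1 kb from the TSS. H3K4me3 covered the TSS in all 4 lists, with a width of 3.3, 3.7, 3.8 and 4.8 kb in XY progenitors, XX progenitors, Sertoli and pregranulosa cells, and filled the whole 4001 bp window in pregranulosa cells. A noncoding transcript of the opposite strand, A630014C17Rik, spans the same promoter, and peaks do not tell strands apart.

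Tcf7l1 encodes TCF3, which acts mainly as a repressor of Wnt targets until β-catenin relieves it. The gene (ENSMUSG00000055799.6) lies at chr6:72576372-72739248 on the minus strand. It had no H3K27me3 in promoter, gene or flanks in XY progenitors, XX progenitors or pregranulosa cells, where the nearest region was 33.8 kb, 34.4 kb and 191.3 kb away. In Sertoli cells a region of 7.6 kb covered the TSS, from 3.08 kb before to 4.56 kb after, and a second of 5.00 kb lay 90.9 kb into the gene. H3K4me3 over the TSS was 3.4, 4.1, 3.4 and 3.3 kb wide, so the promoter had H3K4me3 alone in 3 lists and both marks in 1.

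Tcf7l2 encodes TCF4, the TCF/LEF factor that carries β-catenin signaling in the intestine. The gene (ENSMUSG00000024985.11) lies at chr19:55816300-56008144 on the plus strand. Its main starts, within 658 bp of the annotated TSS, had H3K4me3 and no H3K27me3 in all 4 lists. Further inside, at 153511 bp, lies a RefSeq start that was bivalent in all 4 lists: H3K27me3 covered 150.9 to 155.9 kb in XY progenitors, 150.6 to 155.6 kb in XX progenitors, 148.5 to 158.9 kb in Sertoli cells and 150 to 157.5 kb in pregranulosa cells. Both E13.5 lists held H3K27me3 that neither E10.5 list held, beginning 2.62 kb (Sertoli) and 2.56 kb (pregranulosa) after the TSS and ending at 12.9 and 11.6 kb. Further H3K27me3 regions lay downstream of the gene in both E13.5 lists, and also upstream and elsewhere inside the gene in Sertoli cells. Over the gene and flanks, H3K27me3 covered 5.00 kb in each progenitor list, 40.1 kb in Sertoli and 24.1 kb in pregranulosa cells. H3K4me3 at the TSS was 1 region from -0.91 to 9.45 kb in XX progenitors, and about the same stretch held 3 regions in XY progenitors, from -1.04 to 4.89, 5.09 to 7.53 and 8.52 to 9.52 kb. The region over the TSS was 5.0 kb wide in Sertoli and 5.3 kb in pregranulosa cells.

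**Figure D2:**
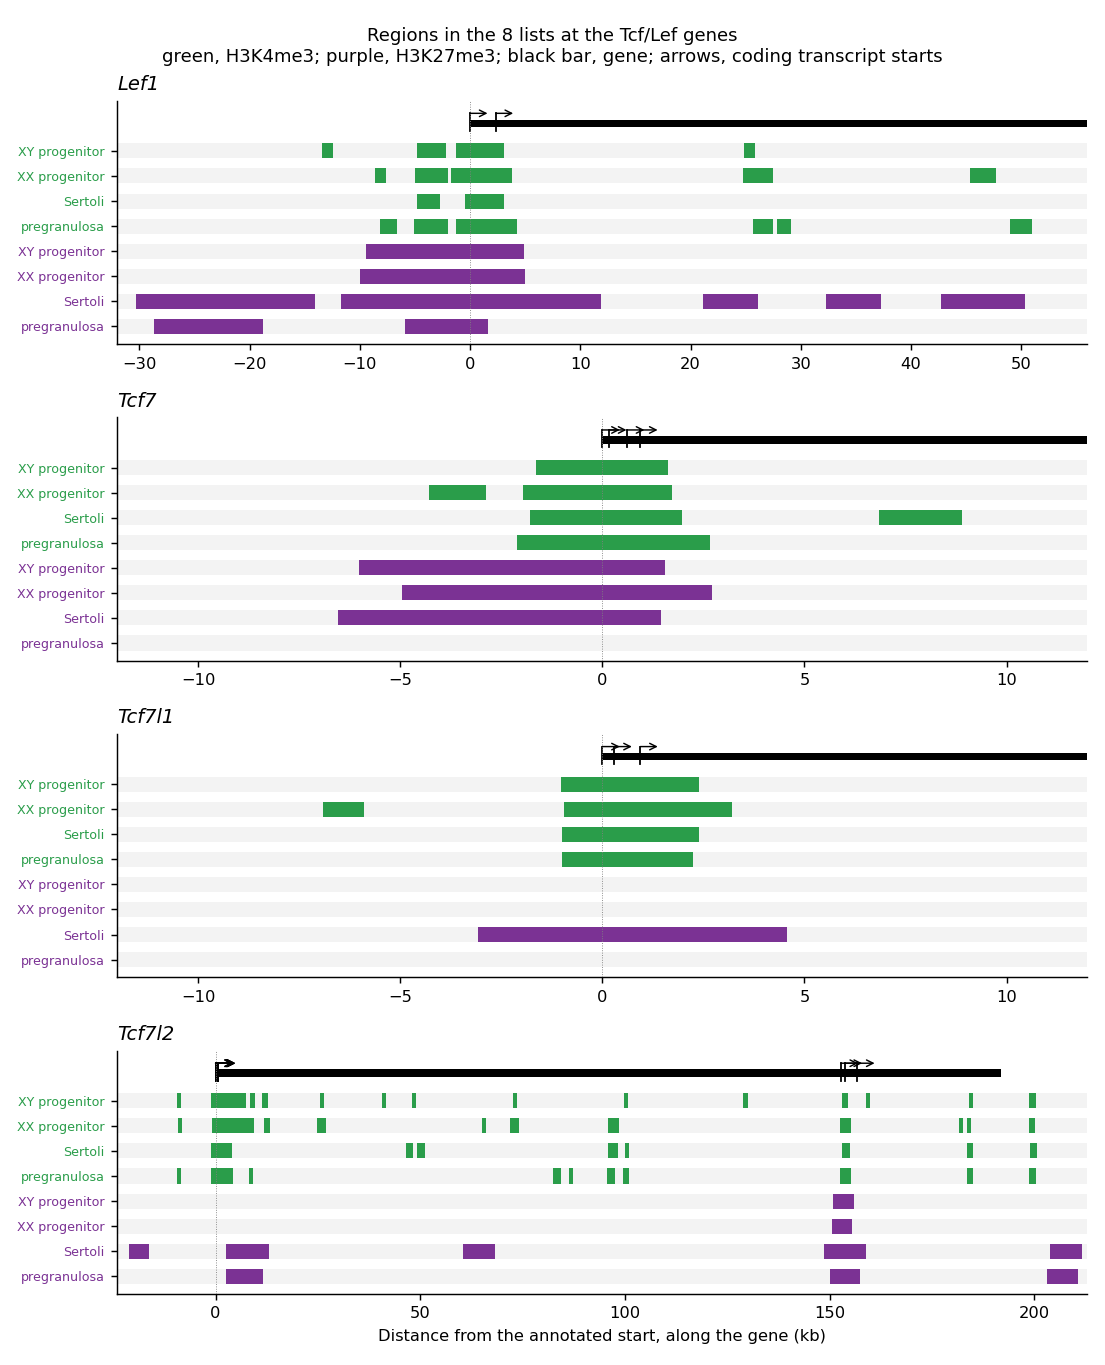
Regions of H3K4me3 (green) and H3K27me3 (purple) in the 4 populations along Lef1, Tcf7, Tcf7l1 and Tcf7l2, by distance in kb from the annotated TSS in the direction of the gene. Black bars are the gene and arrows the coding transcript starts, and the scale differs between panels. H3K27me3 continues into Lef1 in Sertoli cells, is missing at Tcf7 in pregranulosa cells, is present at Tcf7l1 in Sertoli cells alone, and lies at the internal start of Tcf7l2 in all 4 lists.

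Ctnnb1 encodes β-catenin, which joins TCF/LEF factors to the transcription machinery and also holds cadherins to the actin skeleton. The gene (ENSMUSG00000006932.9) lies at chr9:120838334-120869625 on the plus strand. The annotated 5′ end belongs to 1 coding transcript, and the RefSeq starts lie 4184 and 4362 bp downstream of it. The 250 bases before the first of these are printed because H3K4me3 was called here and not at the annotated end. They hold 35 CG dinucleotides, in capitals, where the 250 bases before the annotated end hold 3.
Ctnnb1 chr9:120842268-120842517 plus strand: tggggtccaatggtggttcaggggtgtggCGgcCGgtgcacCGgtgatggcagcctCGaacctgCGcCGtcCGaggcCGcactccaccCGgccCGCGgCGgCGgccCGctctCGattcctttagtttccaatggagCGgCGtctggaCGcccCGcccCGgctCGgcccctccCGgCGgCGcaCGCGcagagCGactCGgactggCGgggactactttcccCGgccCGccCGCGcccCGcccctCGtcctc
H3K4me3 covered both RefSeq starts in every list, from 3.91 to 7.57 kb after the annotated end in XY progenitors, 3.52 to 8.12 kb in XX progenitors, 2.85 to 8.22 kb in Sertoli cells and 2.87 to 8.21 kb in pregranulosa cells. No list held H3K27me3 within Ctnnb1 or its flanks. The nearest region was 244.6 kb away in XY and 248.5 kb in XX progenitors, and 27.6 kb and 28.6 kb away in Sertoli and pregranulosa cells.

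Axin1 and Axin2 encode the scaffold of the complex that marks β-catenin for degradation, the first expressed in most cells and the second as a feedback target of the pathway. Axin1 (ENSMUSG00000024182.9) lies at chr17:26275631-26332756 on the plus strand. H3K4me3 covered its TSS with a width of 2.6 kb in XY progenitors, 2.9 kb in XX progenitors, 3.5 kb in Sertoli and 4.2 kb in pregranulosa cells. No list had H3K27me3 at its promoter or inside the gene. In the flanks, an upstream region ended between 16.9 and 18.2 kb before the TSS in all 4 lists, and a downstream region of 6.26 kb in XY and 9.34 kb in XX progenitors lay over the starts of Pdia2, Arhgdig and Rgs11 or next to them and was in neither E13.5 list.

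Axin2 (ENSMUSG00000000142.9) lies at chr11:108781663-108812097 on the plus strand. The 250 bases before its TSS hold 24 CG dinucleotides, in capitals, and are shown because the Sertoli list placed them under H3K27me3 and the other 3 lists did not.
Axin2 chr11:108781413-108781662 plus strand: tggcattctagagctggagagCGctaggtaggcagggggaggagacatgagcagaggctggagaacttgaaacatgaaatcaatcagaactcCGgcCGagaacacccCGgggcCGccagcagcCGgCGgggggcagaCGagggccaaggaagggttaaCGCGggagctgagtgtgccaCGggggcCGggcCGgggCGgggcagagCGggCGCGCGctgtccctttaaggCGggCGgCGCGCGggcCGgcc
In the progenitors H3K27me3 lay just inside Axin2 and stopped short of the TSS. It began 991 bp after the TSS in XY progenitors and ended at 7.50 kb, and began 640 bp after it in XX progenitors and ended at 5.64 kb. Of the 4001 bp promoter window, 1010 bp and 1361 bp were covered. In Sertoli cells a region of 14.5 kb, from 3.09 kb before to 11.5 kb after the TSS, covered the whole window. In pregranulosa cells no H3K27me3 lay in the window or in the gene, and the nearest region ended 8224 bp before the TSS.

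The upstream H3K27me3 of Axin2 was in every list, from -13.5 to -8.46 kb in XY progenitors, -14.4 to -8.03 kb in XX progenitors, -17.2 to -5.27 kb in Sertoli cells and -16.6 to -8.22 kb in pregranulosa cells. H3K4me3 overlapped this region in all 4 lists. H3K4me3 over the TSS itself was 5.1 kb wide in XY progenitors, 6.5 kb in XX progenitors and 4.4 kb in Sertoli cells, and 11.0 kb in pregranulosa cells, where it reached 10.4 kb into the gene. Of the 13534 autosomal genes with a covered TSS in the pregranulosa list, 0.362% had a region at least as wide, against 3.51% in XY progenitors, 4.02% in XX progenitors and 12.5% in Sertoli cells. H3K4me3 in pregranulosa cells thus reached about as far into Axin2 as H3K27me3 did in Sertoli cells, to 10.4 and 11.5 kb after the TSS.

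The ChIP-qPCR primers for Axin2 matched mm9 exactly at chr11:108780694-108780859, a product of 166 bp between positions -969 and -804 from the TSS.
Axin2 forward primer: acctactcacttccattcccc
Axin2 reverse primer: tcctttccacattctccccaa
This product lay within H3K27me3 in Sertoli cells and outside it in both progenitor lists and in pregranulosa cells. H3K4me3 reached a part of it in XX progenitors and none of it in the other 3 lists.

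Nkd1 and Nkd2 encode the Naked cuticle proteins, which bind Dishevelled and dampen Wnt signaling. Nkd1 (ENSMUSG00000031661.5) lies at chr8:91045243-91118786 on the plus strand and had both marks over its TSS in all 4 lists. H3K27me3 reached from 4.12 kb before to 0.89 kb after the TSS in XY progenitors, from 2.85 kb before to 2.15 kb after in XX progenitors, and from 2.74 kb before to 2.26 kb after in pregranulosa cells, each a region of 5001 bp, the smallest that the peak size allows. In Sertoli cells the region was 20.1 kb wide, from 12.8 kb before to 7.25 kb after, and took in the upstream stretch that was a separate region in the other 3 lists. Of the 4 lists, Sertoli alone had H3K27me3 over the second coding start of Nkd1, 6289 bp after the first and the one that RefSeq gives, where no list had H3K4me3. H3K4me3 over the first start was 3.9 kb wide in XY progenitors, 4.8 kb in XX progenitors, 2.9 kb in Sertoli and 5.7 kb in pregranulosa cells. Downstream of the gene, H3K27me3 began 78.2 kb after the TSS in Sertoli and 85.3 kb after it in pregranulosa cells, and neither progenitor list held a region there.

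Nkd2 (ENSMUSG00000021567.8) lies at chr13:73955982-73985079 on the minus strand. Its upstream 250 bases, with 14 CG dinucleotides in capitals, are printed since it is the member at which the Sertoli list alone had no H3K27me3.
Nkd2 chr13:73985080-73985329 minus strand: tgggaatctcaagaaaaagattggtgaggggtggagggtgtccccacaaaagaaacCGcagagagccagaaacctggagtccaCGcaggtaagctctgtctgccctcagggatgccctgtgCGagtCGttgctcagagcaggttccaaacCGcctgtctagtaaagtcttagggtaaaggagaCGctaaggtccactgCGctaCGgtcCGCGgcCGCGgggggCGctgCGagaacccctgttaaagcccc
H3K27me3 reached from 4.48 kb before to 3.48 kb after the Nkd2 TSS in XY progenitors, from 3.10 kb before to 3.16 kb after in XX progenitors, and from 4.39 kb before to 4.96 kb after in pregranulosa cells. In Sertoli cells there was none in the promoter, the gene or its flanks, and the nearest region was 109.4 kb away. H3K4me3 over the TSS was 1.6 kb wide in XY progenitors, 2.2 kb in XX progenitors, 2.9 kb in pregranulosa cells and 4.6 kb in Sertoli cells. Among the 9 genes with a covered TSS, Nkd2 thus had the narrowest H3K4me3 region in XY progenitors, XX progenitors and pregranulosa cells, and its widest was in the list without H3K27me3.

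Notum encodes a secreted deacylase that strips Wnt ligands of the lipid they need to bind their receptors. The gene (ENSMUSG00000042988.4) lies at chr11:120515102-120522489 on the minus strand. H3K27me3 filled its promoter window in all 4 lists, in a region of 9.1 kb in XY progenitors, 10.9 kb in XX progenitors, 16.6 kb in Sertoli and 13.3 kb in pregranulosa cells. The gene itself was covered over 5376, 5978, 7388 and 6547 bp, which in Sertoli cells is its whole length. H3K4me3 was 3.3, 4.0, 2.2 and 3.1 kb wide, narrowest in Sertoli cells. The noncoding transcript 4732444A12Rik overlaps this promoter on the other strand, and the second H3K27me3 region, downstream of Notum, lay over the starts of Myadml2 and Pycr1 in all 4 lists.

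**Figure D3:**
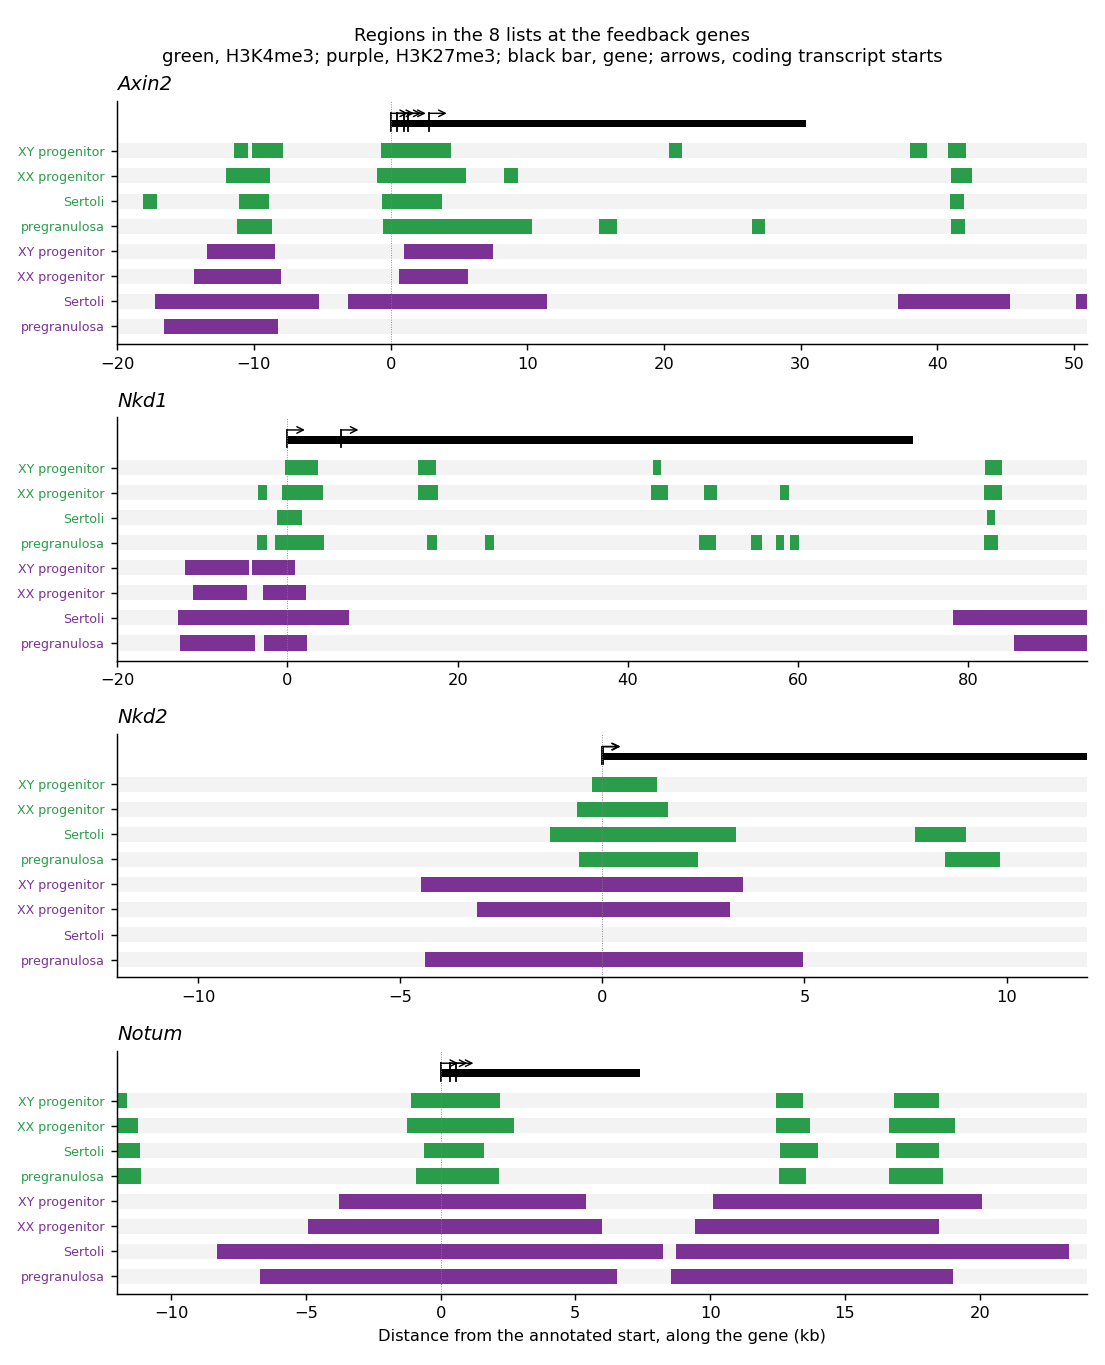
Regions of H3K4me3 (green) and H3K27me3 (purple) in the 4 populations along Axin2, Nkd1, Nkd2 and Notum, by distance in kb from the annotated TSS in the direction of the gene. Black bars are the gene and arrows the coding transcript starts, and the scale differs between panels. At Axin2, H3K27me3 starts inside the gene in the progenitors, covers the TSS in Sertoli cells and is upstream alone in pregranulosa cells, where H3K4me3 is 11.0 kb wide.

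Over the gene and both 20 kb flanks, Sertoli cells had more H3K27me3 than XY progenitors at 7 of the 10 genes and less at 2 (Axin1 and Nkd2), while 35.9% of autosomal genes had more and 15.6% less. Pregranulosa cells had more than XX progenitors at 4 genes (Tcf7l2, Nkd1, Nkd2 and Notum) and less at 4 (Lef1, Tcf7, Axin1 and Axin2), while 28.3% had more and 17.5% less. These shares count all autosomal genes, also those without H3K27me3. Any cover was found at 43% in XY progenitors, 40% in XX progenitors, 45.4% in Sertoli and 40.7% in pregranulosa cells. Among genes that differed, gains were more common: 7698 had more and 3343 less in the XY lineage, and 6072 and 3741 in the XX lineage. At Axin1 all of the covered length lay in the flanks, since its promoter and gene had no H3K27me3 in any list. At Lef1 the covered length was 14.4 kb in XY progenitors, 14.9 kb in XX progenitors, 47.1 kb in Sertoli cells and 8.74 kb in pregranulosa cells. At Axin2 it was 11.5, 11.4, 34.9 and 8.35 kb, and at Tcf7 7.57, 7.66, 7.99 and 0 kb. These 3 genes had more in Sertoli cells than in XY progenitors and less in pregranulosa cells than in XX progenitors, as did 7.92% of genes, although the excess at Tcf7 was 416 bp. Nkd2 had the opposite course, with 7.96, 6.25, 0 and 9.35 kb, as did 4.15%.

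The largest covered lengths in Sertoli cells were at Lef1, Tcf7l2, Nkd1, Axin2 and Notum, at 47.1, 40.1, 35.4, 34.9 and 31.1 kb. Among autosomal genes, 2.36%, 3.74%, 5.02%, 5.21% and 6.75% had at least as much in that list. For Lef1 the same share was 12% in XY progenitors, 11.2% in XX progenitors and 26.1% in pregranulosa cells. Nkd1 and Notum had more in both E13.5 lists than in the progenitors, with 22.1 and 23.7 kb in pregranulosa cells. Genes differ in length, and a longer gene offers more bases to cover. The flanks can also hold other genes: at Notum, 15.4 kb of the 31.1 kb in Sertoli cells lay downstream, where Myadml2 and Pycr1 start.

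**Figure D4:**
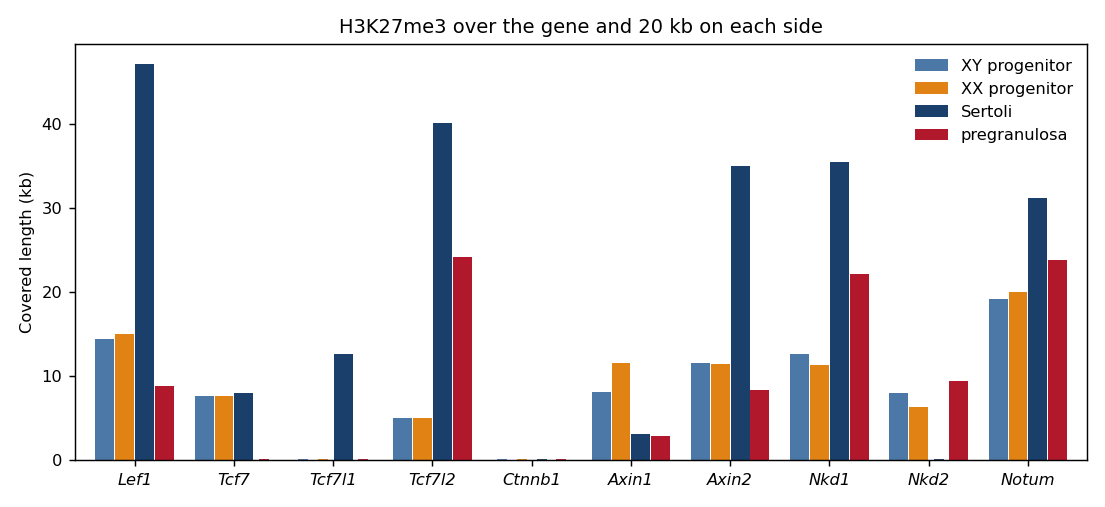
Length covered by H3K27me3 over each gene and the 20 kb before and after it, in kb, in the 4 populations; each bar is 1 pooled list and carries no error bar. Sertoli cells are highest at 7 genes, with 47.1 kb at Lef1, whereas Nkd2 has none in Sertoli cells and Tcf7 none in pregranulosa cells.

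Of the 10 windows around the annotated TSS, 9 held more CpG dinucleotides than the median autosomal gene and that of Ctnnb1 held fewer. Within 2 kb of the TSS they held between 78 (Ctnnb1) and 244 (Axin2) CpG dinucleotides, with a median of 197, where the median over all autosomal genes was 86. The Ctnnb1 window is that of its annotated end, without H3K4me3 in any list, and leaves out the RefSeq starts. The 250 bases before the first RefSeq start of Ctnnb1 hold 35 CG dinucleotides, against 3 before the annotated end. Genes with H3K27me3 in at least 1 list had a median of 107, genes with it in none 74, and genes bivalent in all 4 lists 126. Among the 7 members with H3K27me3 at the promoter in any list the count ran from 119 (Nkd2) to 244, and among the 3 without it Tcf7l2 had 204 and Axin1 143, so the ranges overlapped.

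The letters CTTTGAT, the core that TCF/LEF factors bind, were searched on both strands within 2 kb of each TSS. They were in 5 of the 10 windows and in 45.5% of all autosomal windows of that length. Tcf7 and Nkd1 held 3 matches each, Axin2 held 2, and Notum and Ctnnb1 held 1 each. The match of Ctnnb1 lay before its annotated end, in a window without H3K4me3 in any list. The matches nearest to the TSS of the 4 marked genes, and the other match of Axin2, are printed on the strand of the gene with 10 bases on each side and the core in capitals, by position from the TSS, because the marks over them differed between genes and lists.
Tcf7 chr11:52096870-52096876, position -195: cccgcggtgcCTTTGATgttccgaccc
Axin2 chr11:108781741-108781747, position 78: gccggctgcgCTTTGATaaggtcctgg
Axin2 chr11:108782546-108782552, position 883: ggccggcgcgCTTTGATgtgcggggcg
Nkd1 chr8:91045170-91045176, position -73: tccgcctcgcCTTTGATgggccgctgc
Notum chr11:120522554-120522560, position -71: tccgccgccgCTTTGATcccgggggcc
All 5 lay under H3K4me3 in all 4 lists. The Nkd1 and Notum letters were under H3K27me3 in all 4 lists, and those of Tcf7 in every list but pregranulosa. At Axin2 the first match was under H3K27me3 in Sertoli cells alone and the second in XX progenitors and Sertoli cells. Lef1, Tcf7l1, Tcf7l2, Axin1 and Nkd2 held no match in this window.

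The rest of the canonical Wnt pathway was read in the same way. Among 38 other autosomal genes of the pathway, which include the destruction complex, Dishevelled, coreceptors, corepressors and further targets, H3K27me3 was at 7 promoters in XY progenitors, 7 in XX progenitors, 10 in Sertoli cells and 8 in pregranulosa cells, and H3K4me3 at 37, 37, 38 and 38. The shares of all autosomal genes with H3K27me3 were 23.6%, 22.8%, 24.2% and 22.1%. All with H3K27me3 also had H3K4me3. The call differed between Sertoli and pregranulosa cells at 2 of the 38, in both cases with H3K27me3 in Sertoli cells, a difference seen at 5.11% of all genes, so this count is near the background: Sp5, a direct Wnt target that encodes a zinc finger factor (4001 bp of the window against 0), and Csnk1e, a kinase of Dishevelled (3812 bp against 0). Sp5 had 4001 bp in each progenitor list too, and Csnk1e had none there. The X-linked gene Amer1, a scaffold partner of Axin, had 4001 bp in both XX lists and 0 in both XY lists.

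By the mean absolute difference over 24 covered shares (both marks, 4 populations and the 3 windows), the genes most like Lef1 were Zbtb7c, Rhbdl3, Wwc1, Epb4.1l4b and Ebf1, at 4.54, 4.84, 5.05, 5.15 and 5.25 percentage points, where the median over 22357 genes was 30.12. The shares compared include H3K27me3 at the promoter and over the gene in each list, so the likeness in that mark follows from the choice. Zbtb7c, the first of them, had H3K27me3 over gene and flanks of 15.2 kb in XY progenitors, 14.2 kb in XX progenitors, 91.8 kb in Sertoli cells and 13.4 kb in pregranulosa cells. From XY progenitors to Sertoli cells the length rose at Rhbdl3 (17.73 to 27.13 kb), Wwc1 (14.81 to 19.73 kb), Epb4.1l4b (17.49 to 28.73 kb) and Ebf1 (31.39 to 93.29 kb). From XX progenitors to pregranulosa cells it was 13.49 and 13.46 kb at Rhbdl3. In that pair it rose at Wwc1 (17.11 to 18.92 kb), Epb4.1l4b (18.05 to 20.24 kb) and Ebf1 (22.09 to 75.7 kb).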

How the data were processed

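H3, H3K4me3 and H3K27me3 ChIP-seq of 4 populations (2 replicates each) was processed by the authors. Per the submitters' processing notes and the study's methods, reads were trimmed with Trim Galore, aligned to mm9 with Bowtie, and enriched regions called with HOMER findPeaks in histone style (size 5000 bp for H3K27me3 and 1000 bp for H3K4me3) against H3. The headers of 6 deposited lists give thresholds of 4.00-fold over H3 and over the local region. The methods describe calls for each replicate, whereas the 8 deposited lists are 1 per mark and population; 2 have no header. The deposited positions start at 0 and are printed from 1, and the score column holds a single value.

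Overlapping peaks were joined into regions with Python 3.11.15 and NumPy 2.4.6, and intersected with GENCODE M1 on NCBIM37 (mm9), by at least 1 bp. Every peak ended within its NCBIM37 chromosome. Joining and covered lengths were tested on simulated data (0 of 10000 windows wrong). The TSS is the annotated 5′ end of the gene. Flanks are 20 kb. The background was planned over all 22367 protein-coding genes, but X-linked H3K27me3 differs between XX and XY lists and all members are autosomal, so 21418 autosomal genes were used. With X and Y, H3K27me3 shares moved by at most 1.9 percentage points. Members and lists were chosen with earlier results of these data known. Named genes were the members, the other pathway genes whose H3K27me3 call differed between Sertoli and pregranulosa cells, and the 5 nearest to Lef1. Amer1 was matched by an older symbol. RefSeq promoters (GRCm38.p6) were held for 8 members (14 starts), and all matched mm9 exactly. No test compared populations, since each has 1 pooled list; exact primer matches and sequences were read from mm9.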

Additional observations from a re-analysis of the deposited data

Results flagged for a closer look

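At 4 genes the length covered by H3K27me3 over the gene and its 20 kb flanks differed in opposite directions in the XY and XX lineages. Each population is 1 pooled list, so the difference between lineages was not tested. Sertoli minus XY progenitor cells gave 32769 bp at Lef1, 23431 bp at Axin2 and 416 bp at Tcf7, whereas pregranulosa minus XX progenitor cells gave -6200 bp at Lef1, -3030 bp at Axin2 and -7661 bp at Tcf7. Nkd2 had the reverse, with -7959 bp in the XY and 3095 bp in the XX lineage. These directions were shared by 7.92% and 4.15% of autosomal genes. The H3K27me3 list of XY progenitors came from 6470151 tags and that of Sertoli cells from 44446456, and the part of depth in these lengths was not tested.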

How the results depend on the processing

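No paired analysis was possible because each mark and population has 1 list pooled over both replicates, so leaving out a replicate could not be done either. Of 140 counts of members recomputed under other settings, 135 stayed within 1.5 times the value in the report. Keeping the widest 75% of regions left H3K27me3 at 3 promoters in XX progenitors in place of 6, the number bivalent at 3, and the number with H3K27me3 in the gene at 3. The genes left were Lef1, Tcf7 and Notum, and promoter calls then differed between the XY and XX progenitors at 2 genes (Axin2 and Nkd2) in place of 0. With equal numbers of regions per list they differed at 1 (Nkd1). By construction these settings drop narrow regions first. The region at the Nkd1 TSS had the smallest width, 5001 bp, in XY progenitors, XX progenitors and pregranulosa cells, but 20.1 kb in Sertoli cells. The region at the Axin2 promoter had the smallest width in XX progenitors. Of the covered promoter lengths, H3K4me3 of Lef1 and in some lists of Tcf7l1 and Nkd1 filled the window when regions within 5 kb were joined, and H3K27me3 of Axin2, Nkd1 and Nkd2 was at 0 in some lists when narrow regions were dropped. A count can stay while its members differ: in XX progenitors against pregranulosa cells, 2 genes differed both in the report (Tcf7 and Axin2) and with the widest 75% (Tcf7 and Nkd2). Starting from any annotated transcript start, H3K4me3 is also found at Ctnnb1 and H3K27me3 at Tcf7l2. Requiring the TSS itself to lie in a region, an alternative added after the data were seen, leaves out Axin2 in both progenitor lists. The lists carry no level, and depth is not given for pregranulosa cells.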
